A study of Mus musculus with 9 samples.

Results

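The enzymes of deoxynucleotide supply were represented by 10 genes, taken by symbol from the deposited table. They are Rrm1, Rrm2, Rrm2b, Tyms, Dut, Dctd, Tk1, Tk2, Dck and Samhd1. All 10 were found among the 56691 genes of the table, and all 10 were among the 11995 genes with an FPKM (read count scaled by exon length and library total) that reached 1 in 3 or more libraries, which were the genes tested. RNA came from RAW264.7, an established mouse macrophage line whose cells form osteoclasts when given RANKL, the cytokine that drives osteoclast formation. There were 9 libraries in 3 groups of 3: an untreated control, RANKL alone, and RANKL with uridine (UD), a pyrimidine nucleoside. All were harvested on day 3 of culture. The labels name no engineered allele and call the libraries of a group biological replicates. If these are separate cultures, p-values measure the spread between cultures of 1 line, but the counts cannot show whether they are. The dose of UD for these libraries is not given in the sources used here.

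DNA synthesis needs balanced amounts of the deoxynucleoside triphosphates. Ribonucleotide reductase makes deoxynucleotides from ribonucleotides de novo, a branch through deoxyuridine monophosphate then leads to thymidylate, and salvage kinases recover deoxynucleosides from outside the cell or from DNA breakdown. Cytosolic supply is highest in dividing cells, whereas a smaller supply in resting cells serves repair and mitochondrial DNA. Osteoclasts form when macrophage precursors stop dividing and fuse.

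In each comparison, a gene was called higher or lower at an adjusted p under 0.05 in the quasi-likelihood test of edgeR, adjusted over all tested genes by the Benjamini-Hochberg method. In RANKL against control, 6 members fell and 2 rose, where 57.6% of all tested genes were called, 30.2% lower and 27.3% higher. The 6 that fell were Rrm1, Rrm2, Tyms, Dctd, Tk1 and Dck, and those that rose were Rrm2b and Samhd1. In RANKL + UD against RANKL, 7 members rose and 2 fell, where 38.8% of tested genes were called, 18.6% higher and 20.2% lower. The 7 were the 6 that had fallen with RANKL plus Dut, and the ones that fell were Rrm2b and Tk2. In RANKL + UD against control, 4 members rose (Rrm1, Rrm2, Rrm2b and Dut) and 3 fell (Tk1, Tk2 and Dck), where 54% of tested genes were called, 26.7% higher and 27.3% lower. The 3 comparisons share libraries, so an opposite direction in the first and second of them is not an independent repeat.

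The promoters of Rrm1, Rrm2 and Tk1 are shown because these genes moved in the same directions in the first and second comparisons but stood on opposite sides of the control with UD. Each is the stretch of 130 bases before the start site in RefSeq (build GRCm38.p6), written 5′ to 3′ along the gene, with every CCAAT, the letters known as the CCAAT box, in capitals.
Rrm1, chr7:102441565-102441694, plus strand: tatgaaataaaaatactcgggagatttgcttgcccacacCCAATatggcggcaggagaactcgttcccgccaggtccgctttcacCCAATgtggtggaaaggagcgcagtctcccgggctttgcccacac
Rrm2, chr12:24708124-24708253, plus strand: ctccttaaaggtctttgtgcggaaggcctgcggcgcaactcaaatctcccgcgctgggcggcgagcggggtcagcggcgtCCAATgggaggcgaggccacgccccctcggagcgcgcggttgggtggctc
Tk1, chr11:117826015-117826144, minus strand: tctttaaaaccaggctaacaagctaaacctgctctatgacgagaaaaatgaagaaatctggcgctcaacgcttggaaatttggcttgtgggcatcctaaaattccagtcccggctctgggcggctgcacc

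The Rrm1 stretch held CCAAT at positions -91 and -45 from the start site, the Rrm2 stretch held it at -50, and the Tk1 stretch held none. Their GC content was 54.6%, 70% and 48.5%. RefSeq windows of 300 bases (250 before and 50 after the start) were found for 9 of the 10 members, in 11 windows, with no entry for Rrm2b. CCAAT, searched on both strands, was in 4 of the 11 windows, from 3 members (Rrm1, Rrm2 and Dctd), and in 37.4% of all 32851 windows. Of these 3, Dctd was not called against control with RANKL + UD, whereas Dut was higher there without a match. None of the 11 windows held the E2F-type letters TTTCCCGC, TTTCGCGC, TTTGCCGC or TTTGGCGC, which 2.26% of all windows held, nor the interferon-response-type letters GAAANNGAA, which 8.56% held. TTTGAA or TTCGAA, the letters of the cell cycle homology region, were in the windows of Dck and Tk2 and in 19.2% of all windows. No motif contains the letters of another. A match describes the letters only, and the lack of an exact match does not mean that a binding site is lacking.

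Ribonucleotide reductase pairs a large catalytic subunit, Rrm1, with a small subunit that carries the radical, either Rrm2, which is abundant in S phase, or Rrm2b, which is known for supply outside S phase and as a target of p53. Rrm1 stood at 19.72, 20.36 and 22.19 FPKM in the control libraries, at 14.82, 13.68 and 14.45 with RANKL, and at 24.42, 25.54 and 25.13 with RANKL + UD. All RANKL libraries lay below all control libraries, and all RANKL + UD libraries lay above both other groups. Rrm1 fell with RANKL by 0.45 on the log2 scale (SE 0.052, edgeR adjusted p = 2.14e-07). It was 0.72 higher with RANKL + UD than with RANKL (SE 0.052, edgeR adjusted p = 1.02e-09) and 0.27 higher than in control (SE 0.051, edgeR adjusted p = 0.000127). Gm45399 shares 1016 bases with the span of Rrm1 on the same strand, at a mean of 0.21 FPKM. In this bulk RNA, fewer cells of a kind and less RNA per cell cannot be told apart, here or for any member below.

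Rrm2 had 32.61, 34.81 and 38.46 FPKM in control, 18.06, 20.32 and 20.05 with RANKL, and 41.40, 41.44 and 38.74 with RANKL + UD. The 3 groups did not overlap, although the lowest RANKL + UD library was only just above the highest control library. The fall with RANKL was 1.71-fold (log2 change -0.77, SE 0.066, edgeR adjusted p = 2.02e-09), and the level with RANKL + UD was 1.96-fold that with RANKL (log2 change 0.97, SE 0.065, edgeR adjusted p = 4.09e-10). This was the largest difference among the members in that comparison. Against control, Rrm2 was higher with RANKL + UD by 0.20 on the log2 scale (SE 0.063, edgeR adjusted p = 0.0108). Without control replicate 1, that difference was 0.15 and was no longer called (adjusted p = 0.0707, with a range of 0.000901 to 0.0707 over 18 alternatives).

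Rrm2b moved the opposite way from the other reductase genes in the first and second comparisons. It stood at 3.43, 3.74 and 3.15 FPKM in control, at 4.68, 4.55 and 4.98 with RANKL and at 4.19, 4.17 and 4.16 with RANKL + UD. The RANKL libraries were the highest, the control libraries the lowest, and the RANKL + UD libraries lay between them with no overlap. Rrm2b rose with RANKL (log2 change 0.55, SE 0.078, edgeR adjusted p = 3.75e-06) and was 0.28 higher with RANKL + UD than in control (SE 0.079, edgeR adjusted p = 0.00512). It fell from RANKL to RANKL + UD by 0.27 (SE 0.077, edgeR adjusted p = 0.00821). That last call was lost when library totals alone were used for scaling (log2 change -0.18, adjusted p = 0.0632) and with limma, with a range of 0.00331 to 0.102 over 18 alternatives. The table lists Gm3362 on the same strand within Rrm2b, at a mean of 268 FPKM. It shares 466 bases with the span of Rrm2b and 0 exon bases in the GRCm38 annotation, and its group means were 226, 292 and 286 FPKM. Whether reads were shared between them was not tested. Gm49085 overlaps Rrm2b by 848 bases on the opposite strand, at a mean of 0.07 FPKM.

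**Figure D1:**
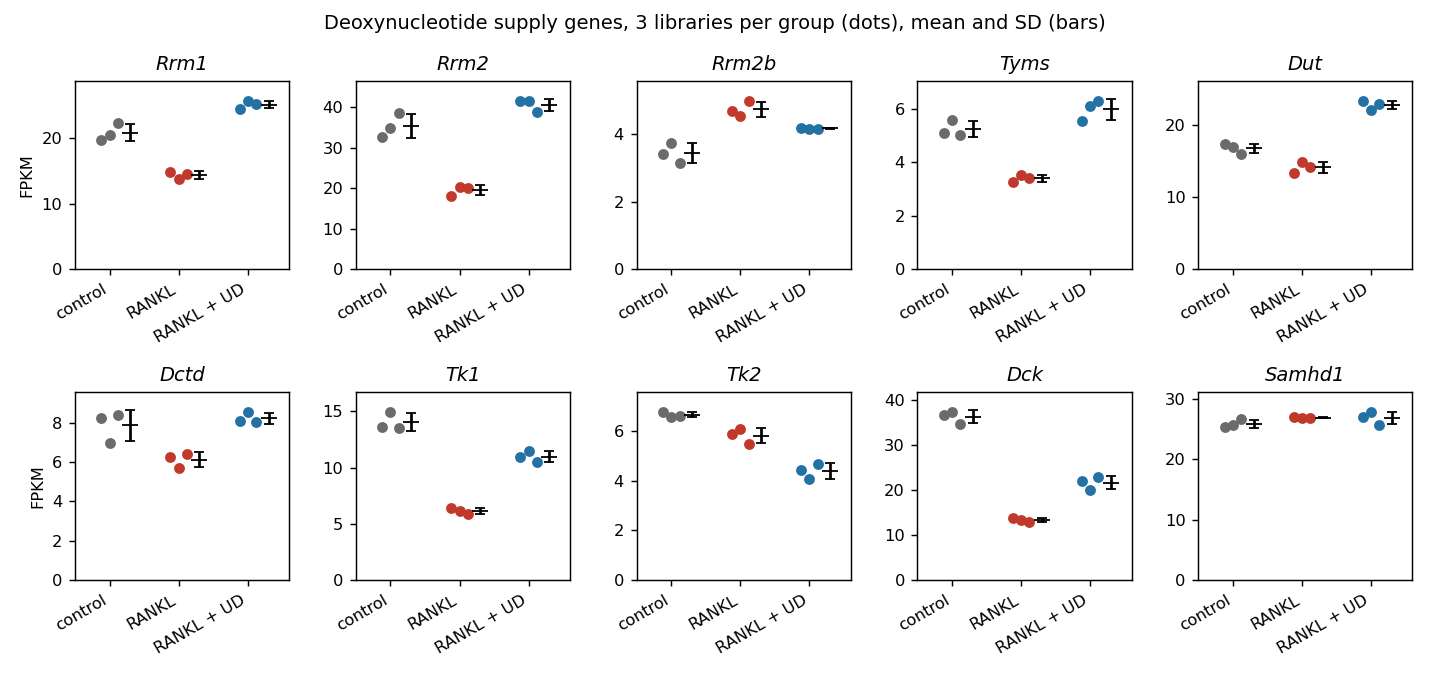
Level of each of the 10 genes in FPKM (y axis, from 0) in control, RANKL and RANKL + UD. Dots are the 3 libraries of a group, and bars show mean and SD. Rrm1, Rrm2, Tyms, Dut, Dctd, Tk1 and Dck have their lowest libraries with RANKL, Rrm2b has its lowest in control, Tk2 has its lowest with RANKL + UD, and Samhd1 keeps within 25.27 to 27.79 FPKM.

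Within each library, the FPKM of Rrm2 was divided by that of Rrm2b to follow the balance between the small subunits. This ratio ran from 9.31 to 12.2 in control, from 3.86 to 4.47 with RANKL and from 9.31 to 9.94 with RANKL + UD. The RANKL libraries lay apart from both other groups, which overlapped each other. On the log2 scale the ratio was 1.32 lower with RANKL than in control (log2 difference -1.32, SE 0.14, exact two-sided permutation p = 0.1), and 1.24 higher with RANKL + UD than with RANKL (SE 0.069, exact permutation p = 0.1). The difference between RANKL + UD and control was -0.08 (SE 0.13, exact permutation p = 0.9). With 3 libraries against 3 the smallest two-sided p is 0.1, and after adjustment over the 18 ratio tests it became 0.138, so no ratio test could pass 0.05.

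The ratio of Rrm2 to Rrm1, small to large subunit, also had its lowest libraries with RANKL. It was 1.65 to 1.73 in control, 1.22 to 1.49 with RANKL and 1.54 to 1.70 with RANKL + UD. The RANKL group lay below both other groups, by 0.32 (SE 0.086) and 0.25 (SE 0.093) on the log2 scale (exact permutation p = 0.1 for each), and control and RANKL + UD overlapped (exact permutation p = 0.2). The size of this and the other ratios depends on the exon lengths used, as described below, but their differences between groups do not.

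In the thymidylate branch, Dut removes pyrophosphate from dUTP to give dUMP, Dctd deaminates dCMP to dUMP, and Tyms methylates dUMP to thymidylate. Tyms stood at 5.09, 5.57 and 5.02 FPKM in control, at 3.27, 3.53 and 3.40 with RANKL and at 5.54, 6.10 and 6.28 with RANKL + UD. The RANKL libraries lay below all others, and the RANKL + UD and control libraries overlapped. Tyms fell with RANKL by 0.54 on the log2 scale (SE 0.084, edgeR adjusted p = 1.36e-05) and was 0.73 higher with RANKL + UD than with RANKL (SE 0.084, edgeR adjusted p = 6.75e-07). Against control, the value with RANKL + UD was 0.19 higher, with a 95% interval of 0.02 to 0.36 and an edgeR adjusted p of 0.0551. It was called without control replicate 2 (adjusted p = 0.0417) and without RANKL + UD replicate 1 (adjusted p = 0.0341), with a range of 0.0341 to 0.183 over 18 alternatives.

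Dut differed from Tyms in being highest with RANKL + UD by a clear gap. Its FPKM was 17.34, 16.98 and 16.08 in control, 13.39, 14.90 and 14.23 with RANKL, and 23.35, 22.18 and 22.92 with RANKL + UD. The 3 groups did not overlap. Dut rose from RANKL to RANKL + UD by 0.60 on the log2 scale (SE 0.07, edgeR adjusted p = 8.24e-07) and was 0.44 above control (SE 0.07, edgeR adjusted p = 1.63e-05). In RANKL against control, its log2 change was -0.16 (95% interval -0.31 to -0.01) and was not called at an edgeR adjusted p of 0.0651. With library totals alone it was -0.25 and called (adjusted p = 0.00571), as it was with limma and without control replicate 3 (adjusted p = 0.0388, with a range of 0.00313 to 0.212 over 18 alternatives).

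Dctd showed the smallest called fall with RANKL among the members. It was at 8.24, 6.97 and 8.40 FPKM in control, at 6.28, 5.69 and 6.44 with RANKL and at 8.09, 8.56 and 8.05 with RANKL + UD. The RANKL libraries were the lowest, and the control and RANKL + UD libraries overlapped. Dctd fell with RANKL by 0.27 on the log2 scale (SE 0.094, edgeR adjusted p = 0.0192) and was 0.34 higher with RANKL + UD than with RANKL (SE 0.094, edgeR adjusted p = 0.00698). The first call was lost without control replicate 1, control replicate 3 or RANKL replicate 2 (adjusted p = 0.0736, 0.0709 and 0.0918, with a range of 0.00266 to 0.0918 over 18 alternatives). Against control, RANKL + UD gave 0.07 (95% interval -0.13 to 0.26, edgeR adjusted p = 0.562).

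The ratio of Tyms to Dut was highest in control. It ran from 0.294 to 0.328 in control, from 0.237 to 0.244 with RANKL and from 0.237 to 0.275 with RANKL + UD. Both treated groups lay below control, by 0.37 (SE 0.048) and 0.25 (SE 0.084) on the log2 scale (exact permutation p = 0.1 for each), and overlapped each other (exact permutation p = 0.3).

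Of the salvage kinases, Tk1 phosphorylates thymidine in the cytosol and is known for its restriction to dividing cells. It stood at 13.58, 14.94 and 13.51 FPKM in control, at 6.36, 6.13 and 5.87 with RANKL and at 10.92, 11.44 and 10.50 with RANKL + UD. The groups were fully apart, with RANKL + UD between the others. Tk1 fell with RANKL 2.16-fold (log2 change -1.11, SE 0.068, edgeR adjusted p = 8.02e-12), was 0.75 higher with RANKL + UD than with RANKL (SE 0.068, edgeR adjusted p = 2.55e-08), and remained 0.35 below control there (log2 change -0.35, SE 0.065, edgeR adjusted p = 9.63e-05). Afmid overlaps Tk1 by 169 bases on the opposite strand, at a mean of 1.21 FPKM. Gm20708 overlaps Tk1 by 10567 bases on that strand, at a mean of 0.007 FPKM. No source used here says whether strand entered the counting.

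Dck, the cytosolic kinase of deoxycytidine that also takes the purine deoxynucleosides, showed the largest fall with RANKL among the members. It had 36.71, 37.29 and 34.54 FPKM in control, 13.74, 13.38 and 12.97 with RANKL, and 21.90, 20.01 and 22.91 with RANKL + UD. The groups were fully apart, and each RANKL + UD library lay between the RANKL and the control libraries. The fall was 2.55-fold (log2 change -1.35, SE 0.061, edgeR adjusted p = 4.2e-14). RANKL + UD was 1.52-fold above RANKL (log2 change 0.61, SE 0.061, edgeR adjusted p = 1.18e-07) and 1.67-fold below control (log2 change -0.74, SE 0.059, edgeR adjusted p = 6.69e-10).

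Tk2, the mitochondrial kinase of thymidine and deoxycytidine, followed neither cytosolic kinase. It stood at 6.77, 6.58 and 6.62 FPKM in control, at 5.87, 6.09 and 5.49 with RANKL and at 4.44, 4.05 and 4.69 with RANKL + UD, the lowest of the 3 groups, and no groups overlapped. The change with RANKL was -0.11 on the log2 scale (95% interval -0.30 to 0.08) and was not called (edgeR adjusted p = 0.335). It was called with limma on log2(FPKM + 1), at -0.17 (adjusted p = 0.0373), and on log2(FPKM + 0.1), at -0.19 (adjusted p = 0.0412). The range was 0.0373 to 0.599 over 18 alternatives. These 2 calls and the lack of overlap rest on FPKM, which has no scaling beyond exon length and the library total. Tk2 fell from RANKL to RANKL + UD by 0.49 (SE 0.095, edgeR adjusted p = 0.000334) and was 0.60 below control there (log2 change -0.60, SE 0.095, edgeR adjusted p = 1.81e-05).

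Set against each other within a library, cytosolic Tk1 was at 2.01 to 2.27 times the level of mitochondrial Tk2 in control and at 2.24 to 2.82 times with RANKL + UD, but at 1.01 to 1.08 times with RANKL. The RANKL libraries lay apart from both other groups, by -0.998 (SE 0.065) against control and by 1.25 (SE 0.10) from RANKL to RANKL + UD on the log2 scale (exact permutation p = 0.1 for each). Control and RANKL + UD overlapped (exact permutation p = 0.2). The ratio of Tk1 to Dck ran from 0.370 to 0.401 in control, from 0.453 to 0.463 with RANKL and from 0.458 to 0.572 with RANKL + UD. Here control was the lowest group, by 0.24 (SE 0.035) and 0.39 (SE 0.099) on the log2 scale (exact permutation p = 0.1 for each), and the treated groups overlapped (exact permutation p = 0.2).

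**Figure D2:**
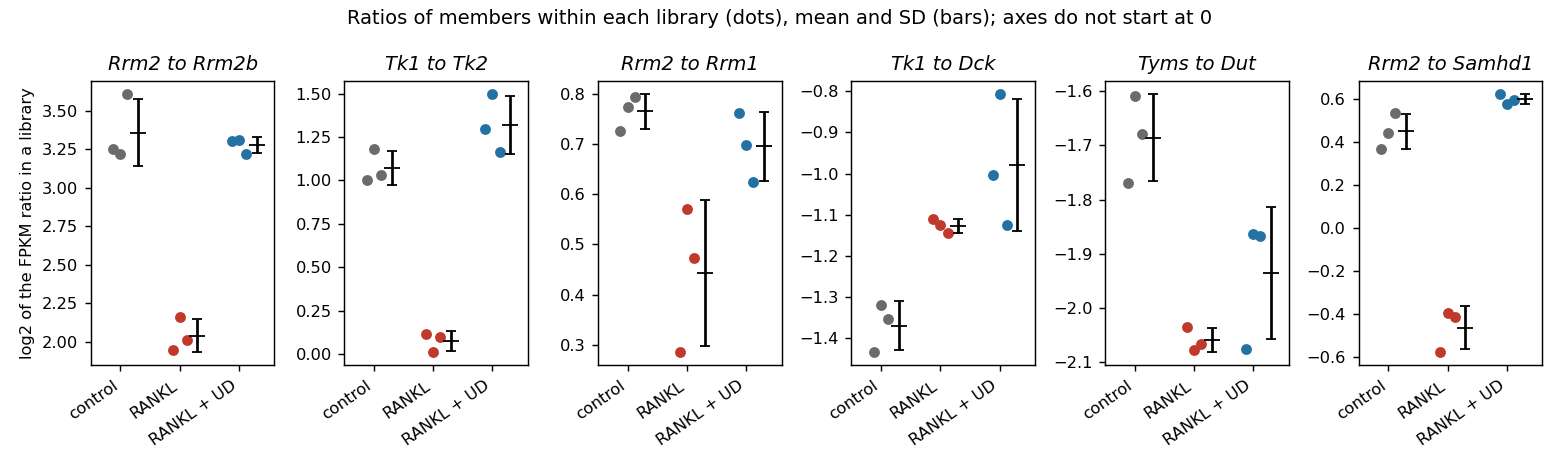
Log2 of the FPKM ratio of 6 pairs of members in each library, by group. Dots are libraries, bars show mean and SD, and the y axes do not start at 0. Rrm2 to Rrm2b, Tk1 to Tk2, Rrm2 to Rrm1 and Rrm2 to Samhd1 have their lowest libraries with RANKL, whereas Tk1 to Dck and Tyms to Dut set control apart from both treated groups.

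Samhd1 cleaves deoxynucleoside triphosphates and so lowers the pool that the other enzymes fill. It was at 25.27, 25.62 and 26.56 FPKM in control, at 27.00, 26.79 and 26.78 with RANKL and at 26.89, 27.79 and 25.68 with RANKL + UD. The RANKL libraries lay just above the control libraries, and RANKL + UD overlapped both. Samhd1 was called higher with RANKL, by 0.14 on the log2 scale (SE 0.046, edgeR adjusted p = 0.0109), but with library totals alone the change was 0.06 and not called (adjusted p = 0.305, with a range of 0.00201 to 0.305 over 18 alternatives). RANKL + UD differed from RANKL by -0.09 (95% interval -0.19 to 0.01, edgeR adjusted p = 0.132) and from control by 0.05 (95% interval -0.04 to 0.15, edgeR adjusted p = 0.34). The ratio of Rrm2 to Samhd1 ran from 1.29 to 1.45 in control, from 0.669 to 0.758 with RANKL and from 1.49 to 1.54 with RANKL + UD, and no groups overlapped (exact permutation p = 0.1 for each comparison).

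Over the members together, the FPKM of the compared groups did not overlap for 10 of 10 in RANKL against control, for 9 in RANKL + UD against RANKL and for 7 in RANKL + UD against control, where 61.7%, 51.7% and 59.9% of all tested genes did not overlap. The median log2 change of the 10 members was -0.36, 0.60 and 0.13 in these comparisons, against -0.03, 0.005 and -0.002 over all tested genes. When a fold change over 1.5 was also required, 3 members were lower with RANKL (Rrm2, Tk1 and Dck) and none was higher, where 14.1% and 10.8% of all tested genes were so called. Under the same rule, 6 members were higher with RANKL + UD than with RANKL (Rrm1, Rrm2, Tyms, Tk1, Dck and Dut) and none was lower, where 4.38% and 5.49% of tested genes were. Against control, RANKL + UD then had 2 members lower (Tk2 and Dck) and none higher, where 12.8% and 9.3% of tested genes were.

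**Figure D3:**
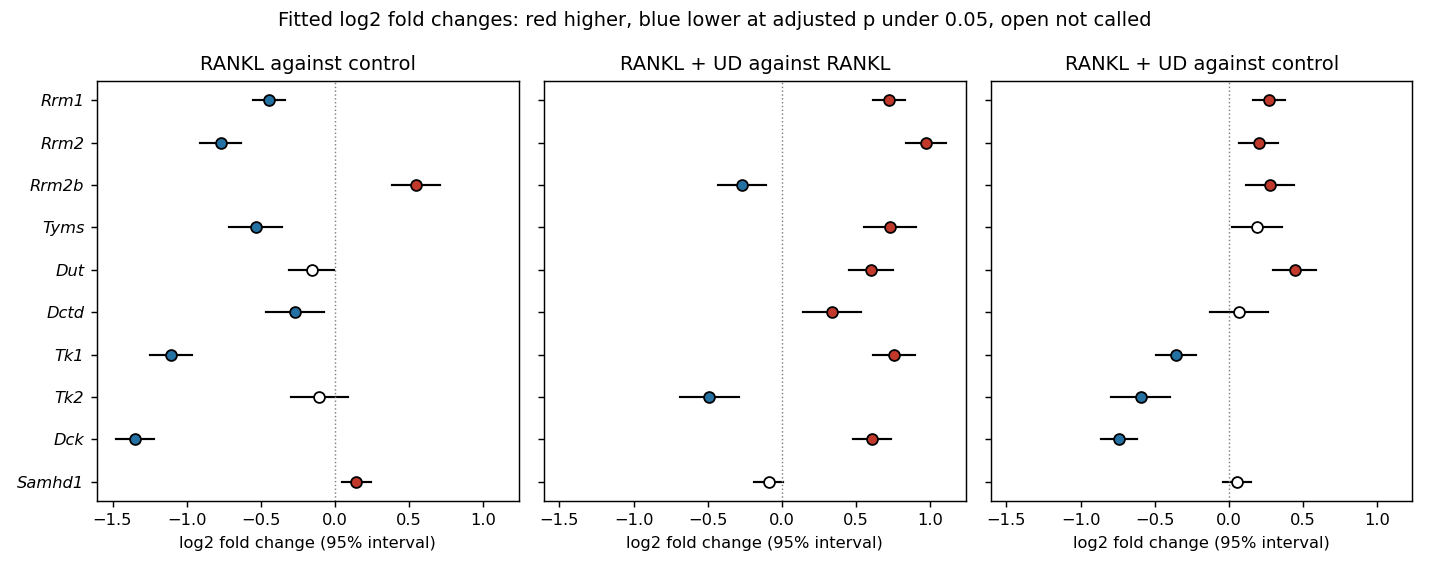
Fitted log2 fold change (x axis) of each member with its 95% interval in the 3 comparisons. Red marks a gene called higher, blue one called lower and open circles one not called at adjusted p under 0.05. From left to right 2, 7 and 4 members are higher and 6, 2 and 3 are lower.

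Ordered by FPKM, Dck and Rrm2 stood first in control and overlapped each other, followed by Samhd1, Rrm1, Dut, Tk1, Dctd, Tk2, Tyms and Rrm2b with no overlap between neighbours. With RANKL, Samhd1 was first and Rrm2 second. Rrm1, Dut and Dck then overlapped in a chain, as did Dctd, Tk1 and Tk2 below them, and Rrm2b and Tyms were last. With RANKL + UD, the order was Rrm2, Samhd1, Rrm1, Dut and Dck overlapping, Tk1, Dctd, Tyms, and then Tk2 and Rrm2b overlapping. By its mean, Dck thus went from the first place in control to a place behind Samhd1, Rrm2, Rrm1 and Dut in both treated groups.

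This order holds for the exonic length in the deposited table, which sums all annotated exons of a gene. For Tk1 this length was 5198 bases against 1440 for the transcript with the longest coding sequence in the GRCm38 annotation, 3.61 times as long, whereas for Dck the factor was 1.23. With the length of that transcript, an alternative added after the data were seen, the mean level in control was 60.2 for Samhd1, 57.2 for Rrm1, 50.6 for Tk1, 44.6 for Rrm2 and 44.4 for Dck. In control Tk1 then stood ahead of both Rrm2 and Dck. Fold changes of a gene between groups are not touched by this choice.

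In the deposited table, Rrm1 (ENSMUSG00000030978) lies on chromosome 7 from 102090902 to 102118978 on the plus strand, Rrm2 (ENSMUSG00000020649) on chromosome 12 from 24758240 to 24764145 on the plus strand and Rrm2b (ENSMUSG00000022292) on chromosome 15 from 37924196 to 37961562 on the minus strand. Tyms (ENSMUSG00000025747) lies on chromosome 5 from 30263200 to 30278615 (minus), Dut (ENSMUSG00000027203) on chromosome 2 from 125089110 to 125100528 (plus) and Dctd (ENSMUSG00000031562) on chromosome 8 from 48552127 to 48606268 (plus). Tk1 (ENSMUSG00000025574) lies on chromosome 11 from 117706352 to 117716918 (minus), Tk2 (ENSMUSG00000035824) on chromosome 8 from 104953317 to 104975190 (minus), Dck (ENSMUSG00000029366) on chromosome 5 from 88912855 to 88931140 (plus) and Samhd1 (ENSMUSG00000027639) on chromosome 2 from 156939453 to 156977185 (minus). The members thus lie on 7 chromosomes, with Dctd and Tk2, Tyms and Dck, and Dut and Samhd1 sharing one. The submitters name the build mm10, but 0 of the 10 members have the coordinates of the GRCm38 annotation, so the table's coordinates are not those of the promoters above.

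The other genes of nucleotide metabolism were followed in 4 lists. In the 3 comparisons, 27.3%, 18.6% and 26.7% of all tested genes were called higher, and 30.2%, 20.2% and 27.3% lower. The counts of these and the later lists stand beside those shares. Among 10 tested nucleotide kinases beside the members, 2 rose and 2 fell with RANKL, and 3 rose and 1 fell from RANKL to RANKL + UD. Cmpk2, a mitochondrial kinase known as an interferon-induced gene, fell with RANKL by 2.11 on the log2 scale (SE 0.13). Dtymk, the kinase that carries thymidylate on to dTDP, was the largest riser from RANKL to RANKL + UD (log2 change 0.70, SE 0.071), and Dguok, the mitochondrial deoxyguanosine kinase, fell by 0.47 (SE 0.13). Against control, 4 rose and 1 fell with RANKL + UD, with Cmpk2 at -1.44 (SE 0.13). The list's median log2 change was 0.06, 0.12 and 0.15 in the 3 comparisons. The 2 falls with RANKL became 1 without control replicate 1 or RANKL replicate 2, the 1 fall from RANKL to RANKL + UD became 2 without control replicate 3 or RANKL + UD replicate 3, and the 1 fall against control became 2 without RANKL + UD replicate 3.

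The folate cycle gives Tyms its methyl group, and its 9 genes were split. With RANKL, 1 rose and 4 fell, led by Mthfd2 (log2 change 0.42, SE 0.05), the mitochondrial folate dehydrogenase, and by Ggh (log2 change -1.26, SE 0.13), which trims folate polyglutamates. In RANKL + UD against RANKL, 4 rose and 2 fell. Shmt1, the cytosolic serine hydroxymethyltransferase, rose by 0.72 (SE 0.10) and Mthfd2 fell by 0.67 (SE 0.05). Against control, 3 rose and 4 fell with RANKL + UD, from Mthfd1 at 0.54 (SE 0.061) to Ggh at -1.27 (SE 0.13). The median log2 change of the 9 was -0.09, 0.06 and -0.20 in the 3 comparisons.

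Genes that cleanse the nucleotide pool or break nucleosides down were tested for 10 of 14 listed. With RANKL, 1 rose and 3 fell, from Nudt1 (log2 change 0.49, SE 0.19), which removes oxidized purine triphosphates and was no longer called with library totals alone, to Pnp (log2 change -0.75, SE 0.10), the purine nucleoside phosphorylase. With RANKL + UD against RANKL, 3 rose and none fell, with Dctpp1, the dCTP pyrophosphatase, at 0.75 (SE 0.16). Against control, 3 rose and 1 fell with RANKL + UD, with Nudt1 at 0.67 (SE 0.19) and Pnp at -0.37 (SE 0.098). The median log2 changes were -0.14, 0.25 and 0.15. Nudt1 was also no longer called with RANKL without control replicate 2, RANKL replicate 1 or RANKL replicate 2. With no filter on low values and with filterByExpr, the 1 rise with RANKL became 2. The 3 falls with RANKL became 1 without control replicate 3 or RANKL replicate 2, and the 3 rises against control became 5 without control replicate 3.

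Pyrimidine ribonucleotide supply, the pathway that feeds the reductase with pyrimidines and takes up uridine itself, had 10 tested genes. With RANKL, 1 rose (Umps, which completes UMP synthesis, log2 change 0.28, SE 0.064) and 3 fell. Slc29a1, a nucleoside transporter, had the largest fall (log2 change -0.69, SE 0.083). With library totals alone, 6 were lower. Between RANKL and RANKL + UD, 6 rose and none fell, led by Dhodh, the mitochondrial dihydroorotate dehydrogenase (log2 change 0.70, SE 0.12). Against control, 5 rose and 2 fell with RANKL + UD, with Umps at 0.66 (SE 0.063) and Slc29a1 at -0.73 (SE 0.083). The median log2 changes were -0.17, 0.25 and 0.26.

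The replication machinery and the E2F and cell cycle regulators moved in mostly the same direction within each of the first and second comparisons. Of 20 replication genes, 18 fell and 1 rose with RANKL, and 19 rose and none fell from RANKL to RANKL + UD. The medians were -0.41 and 0.51 on the log2 scale, close to the -0.36 and 0.60 of the 10 members. The exception in RANKL against control was Cdt1, the licensing factor of origins, at 0.29 (SE 0.095), which was no longer called with library totals alone or without control replicate 1, control replicate 2 or RANKL replicate 3, and the largest fall was that of Pole, the leading-strand polymerase (log2 change -0.76, SE 0.068). Fen1, the flap endonuclease, had the largest rise from RANKL to RANKL + UD (log2 change 0.75, SE 0.11). Against control, 7 rose and 2 fell with RANKL + UD, from Mcm4 at 0.41 (SE 0.053) to Gins1 at -0.35 (SE 0.11), with a median of 0.10. The 2 falls became 1 without control replicate 1, control replicate 3 or any RANKL + UD library.

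Of 19 E2F and cell cycle regulators, 15 fell and none rose with RANKL, and 17 rose and none fell from RANKL to RANKL + UD, with medians of -0.69 and 0.66. E2f2, an activating E2F, fell most (log2 change -2.28, SE 0.13), and E2f7, a repressing E2F, was the largest riser with UD (log2 change 1.00, SE 0.14). Against control, 4 rose and 9 fell with RANKL + UD, from Mybl2 at 1.10 (SE 0.078) to E2f2 at -1.81 (SE 0.12), with a median of -0.15. Without control replicate 3, 1 rose with RANKL. The part of these cell cycle genes in the members' differences was not tested.

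Some members are known to respond to p53 or to interferon, and other targets of each were followed. Among 13 tested p53 targets, of which Rrm2b is known as a further one, 4 rose and 5 fell with RANKL. Of all tested genes, 27.3% rose and 30.2% fell there. Sesn2, a stress-induced sestrin, rose by 1.17 (SE 0.10) and Btg2, an antiproliferative gene, fell by 2.07 (SE 0.091). From RANKL to RANKL + UD, 7 rose and 4 fell, with Zmat3 at 0.78 (SE 0.055) and Sesn2 at -0.86 (SE 0.099). Against control, 5 rose and 3 fell, with Ccng1 at 1.07 (SE 0.05) and Btg2 at -1.82 (SE 0.09). The median log2 changes of the p53 targets were -0.12, 0.26 and 0.21 in the 3 comparisons.

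All 12 interferon-stimulated genes fell with RANKL, with a median of -1.26 and the largest fall in Mx1 (log2 change -3.13, SE 0.35), an antiviral GTPase. Samhd1, itself known as interferon-inducible, was not among the genes that fell. From RANKL to RANKL + UD, 4 rose and none fell, with a median of 0.19 and Ifit1 at 1.42 (SE 0.28). The 4 became 2 without RANKL replicate 2 or RANKL + UD replicate 3. Against control, 11 were lower with RANKL + UD and none was higher, with a median of -0.96 and Mx1 at -3.34 (SE 0.36).

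**Figure D4:**
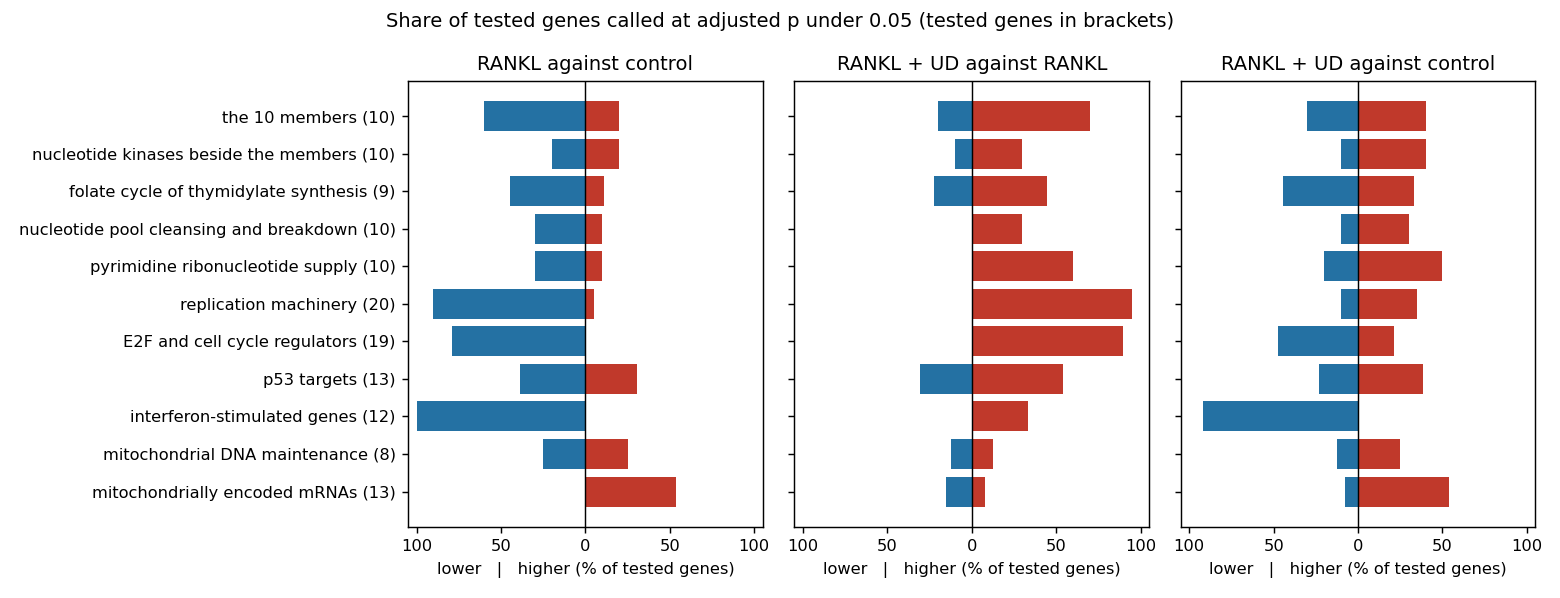
Percent of the tested genes in each list called higher (red, to the right of 0) or lower (blue, to the left of 0) in the 3 comparisons, with the number of tested genes in brackets. The replication machinery has 18 of 20 genes lower with RANKL and 19 of 20 higher from RANKL to RANKL + UD, beside 6 of 10 lower and 7 of 10 higher among the members.

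For each member, the genes with the most similar pattern were ranked by Pearson r of log2(FPKM + 1) over the 9 libraries, which are 3 groups of 3 and share their library totals. Rrm1 was nearest to Rfwd3 (r = 0.991) and Topbp1 (r = 0.991), Rrm2 to Cks1b (r = 0.996) and Tubb4b (r = 0.991), and Tk1 to Ncapg (r = 0.995) and Kif20b (r = 0.994). Dut was nearest to Ung (r = 0.993), which removes uracil from DNA, and to Pigm (r = 0.992), and Tyms to Atxn1l (r = 0.990) and Nup85 (r = 0.989). Dck was nearest to Ifit2 (r = 0.996) and Myd88 (r = 0.995). Tk2 was nearest to Acvrl1 (r = 0.993) and Klf9 (r = 0.979), Rrm2b to Lrsam1 (r = 0.986) and Mpdu1 (r = 0.983), and Dctd to Mtus2 (r = 0.972) and Gm38414 (r = 0.971). Samhd1 had the lowest values of r, with Gm15899 (r = 0.933) and Gm6477 (r = 0.922). Between members, r was highest for Rrm1 with Rrm2 (0.971) and lowest for Rrm2b with Dck (-0.929).

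Library totals ranged from 15951800 to 19746862 counts, and a member had between 236 and 5287 counts in a library. The libraries went with their labels: 8 of 9 osteoclast markers were tested, and all 8 were higher with RANKL than in control, lower with RANKL + UD than with RANKL, and higher with RANKL + UD than in control. Their summed level was 46.9 to 50.1 FPKM in control, 2641 to 2844 with RANKL and 1666 to 1703 with RANKL + UD, with Ctsk, the osteoclast protease, the most abundant in the treated groups and Calcr at 0 in all control libraries. The 8 macrophage markers summed to 9671 to 10243, 2716 to 2975 and 2375 to 2493 FPKM, with Lyz2, a lysozyme, the most abundant and with 7 of 8 lower and 1 higher in each comparison. Stromal, epithelial and lymphoid markers were at or near 0, with 0 of 10 tested and at most 0.46 FPKM in sum in any library. Osteoclast and macrophage markers thus moved with the groups, and their part in the members' differences was not tested. Same-group libraries differed by more than sampling noise (chi-square per degree of freedom 2.98 to 9.54 over 9 pairs), so none was a copy of another. This cannot tell separate cultures from repeat preparations of the same RNA.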

How the data were processed

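RNA-seq of 9 RAW264.7 libraries, 3 per group, was analysed. Groups and replicate numbers came from the labels, and the deposited columns of the "model" group were taken as RANKL, the name the study's text gives it. The authors deposited whole-number counts per gene without normalization, and FPKM that the authors made from the count, the summed exon length and the library total. Recomputed FPKM lay within 0.01 of the deposited FPKM for 100% of genes. The submitters' processing notes name mm10, and the aligner, counting tool, strand setting and annotation release are not given in the sources used here. The paper names Illumina NovaSeq and DESeq2.

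Genes that reached an FPKM of 1 in 3 or more libraries (11995 of 56691) were tested with edgeR 4.0.16 in R 4.3.3 (TMM scaling, glmQLFit and glmQLFTest, all 9 libraries in 1 fit, group as the sole term, common dispersion 0.00401), with Benjamini-Hochberg adjustment over all tested genes. TMM factors were 1.02 to 1.03 in control, 0.959 to 0.963 with RANKL and 1.01 to 1.03 with RANKL + UD. The SE was taken as the size of the log2 fold change divided by the square root of the F statistic. Fold changes are on the log2 scale, made here from the deposited counts. Ratios of members were made within each library from FPKM and compared by exact two-sided permutation. Lists were described by counts and medians only. No labels or headers give a date or batch, so no batch was tested.

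Named genes were the 10 members, the called gene with the largest rise and fall of each list in each comparison, the most abundant markers, and the 2 genes nearest to each member by Pearson r. Calcr, which was not tested, Gm3362, Gm49085, Gm45399, Gm20708, Afmid, mt-Nd3, mt-Nd4l, mt-Atp8 and mt-Co3 were added after their values were seen. The largest rise among the nucleotide kinases is not reported here for the comparisons with control. The members, lists and rules were chosen with earlier results of these data known. Alternatives were DESeq2 1.42.0, edgeR with RLE factors or library totals, no filter or filterByExpr, the 6 libraries of a comparison alone, a replicate block, limma 3.58.1 on log2(FPKM + 1) and on log2(FPKM + 0.1), a fold change over 1.5, and each library left out in turn. The lowest count of a member in any library was 236, for Tk2. The edgeR script was tested on simulated data. Sequences came from RefSeq tables, matched by symbol. Protein sequences were not analysed here.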

Additional observations from a re-analysis of the deposited data

How the results depend on the processing

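Counts of members called depended on the scaling and the call rule. With library totals alone, with limma on log2(FPKM + 1) and with limma on log2(FPKM + 0.1), 1 member was higher in RANKL against control (Rrm2b, without Samhd1) and 1 was lower in RANKL + UD against RANKL (Tk2, without Rrm2b), where the reported counts are 2 and 2. Library totals moved the median of all tested genes by -0.087 and 0.086 on the log2 scale in these comparisons. With a fold change over 1.5 also required, 0 members were higher and 3 lower in RANKL against control, 0 were lower in RANKL + UD against RANKL, and 0 were higher in RANKL + UD against control. A direction turned in 2 results that were not called. The log2 change of Dctd in RANKL + UD against control was 0.07 and became -0.018 without control replicate 2, the lowest value with 1 library left out, and the highest was 0.12 (edgeR adjusted p = 0.898, with a range of 0.343 to 0.898 over 18 alternatives). The log2 ratio of Rrm2 to Rrm2b in that comparison was -0.08 and ran from -0.15 to 0.045 with 1 library left out, the highest being without control replicate 3. Of 540 fold changes of members under alternatives, 520 kept their direction and side of the threshold, as 143 of 144 ratio differences kept their direction. Of 1080 counts of called genes in the lists, 1013 stayed within 1.5 times the reported count and 67 did not, mostly where the reported count was 3 or lower.

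The labels give no shared origin for libraries of the same replicate number, so the numbers were not taken as pairs. No same-numbered correlation was above 0.1, but the highest of all pairs was same-numbered (0.098, control and RANKL + UD replicate 1). A shared origin is thus not excluded. Correlations of deviations from the group means were -0.019 to 0.098 for 9 same-numbered pairs and -0.102 to 0.046 for 18 others. Of 18 best matches, each the closest of the 3 libraries in another group, 11 shared a number. With the replicate block, Tyms in RANKL + UD against control kept its log2 change of 0.19 and was called (edgeR adjusted p = 0.0487), and no other member's call changed.

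With 3 libraries per group the ratio tests cannot reach 0.05. The planned comparison of protein sequences was not run.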

Other observations

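Mitochondrial DNA draws on the supply to which Tk2 and Rrm2b contribute. Of 8 genes that maintain mitochondrial DNA, 2 rose and 2 fell with RANKL, from Ssbp1, the single-stranded DNA binding protein, at 0.35 (SE 0.073) to Polg2, the accessory subunit of the mitochondrial polymerase, at -0.98 (SE 0.13) on the log2 scale (edgeR, adjusted p under 0.05). Of all tested genes, 27.3% rose and 30.2% fell in that comparison, and the list's median log2 change was 0.04. From RANKL to RANKL + UD, 1 rose (Mgme1, an exonuclease, at 0.53, SE 0.11) and 1 fell (Twnk, the helicase, at -0.34, SE 0.081). Against control, 2 rose and 1 fell with RANKL + UD, with Top1mt at 0.42 (SE 0.15) and Polg2 at -0.89 (SE 0.13). These 2 rises became 1 with limma and without control replicate 1, control replicate 2 or RANKL + UD replicate 3, and the 2 rises with RANKL became 1 with limma and with library totals alone.

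Of the 13 mRNAs encoded in mitochondrial DNA, 7 rose and none fell with RANKL, with a median log2 change of 0.66, and mt-Nd2, a subunit of complex I, had the largest rise (log2 change 0.98, SE 0.058). From RANKL to RANKL + UD, 1 rose and 2 fell, with mt-Atp6 at 0.78 (SE 0.22), mt-Co2 at -0.41 (SE 0.12) and a median of 0.01. The FPKM of mt-Atp6 was 26.68, 21.43 and 25.72 with RANKL and 45.79, 65.18 and 24.06 with RANKL + UD. That of mt-Co2 was 71.74, 77.08 and 113.79 with RANKL and 73.11, 66.77 and 69.24 with RANKL + UD. With RANKL, mt-Co1 had a mean of 12114 FPKM, beside 3.71 for mt-Nd3, 3.19 for mt-Nd4l, 5.05 for mt-Atp8 and 56.1 for mt-Co3. None of these genes was called in RANKL against control. Whether reads of mt-Nd3, mt-Nd4l, mt-Atp8, mt-Co3, mt-Atp6 and mt-Co2 were lost in counting was not tested. Against control, 7 rose and 1 fell with RANKL + UD, with mt-Nd2 at 0.99 (SE 0.058), mt-Co1 at -0.31 (SE 0.043) and a median of 0.69. From RANKL to RANKL + UD, the 1 rise became 0 with DESeq2, with limma on log2(FPKM + 0.1) and without RANKL + UD replicate 2, 2 without control replicate 3 and 3 with library totals alone. The 2 falls became 0 with limma and 1 without RANKL replicate 3. With RANKL, 1 fell with library totals alone, with limma and without control replicate 2, and against control 2 fell without control replicate 2 or RANKL + UD replicate 3.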
